A study of Homo sapiens with 56 samples.

Results

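The cytosolic heat shock chaperones were followed in 7 human colorectal cancer cell lines (HCT116, LoVo, DLD1, SW948, SKCO1, SW1417 and HT29) with and without 2-methylisocitrate (2-MiCit), an intermediate of the bacterial cycle that breaks down propionate. The series concerns the effect of a microbial metabolite on chemotherapy, and none of these libraries is labelled with a chemotherapy drug. Each line was given 10 mM 2-MiCit or its vehicle, water, with 4 libraries in each of the 14 groups and 56 in all. The labels give all of the lines as epithelial, from colon and wild-type. They give neither the length of treatment nor the origin of the 4 libraries of a group. If a group was 1 culture, the spread behind each p-value is only technical. Established lines are tumour cells grown in culture without stroma.

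A set of 10 genes was matched by symbol to the Ensembl identifiers of both deposited count tables, and 8 were measured among 17536 gene rows in either table. The constitutive forms were HSPA8, HSP90AB1 and HSPA4. The inducible forms were HSP90AA1, HSPH1, DNAJB1, HSPB1 and BAG3. No row carries an identifier that the annotation pairs with HSPA1A or HSPA1B, the heat-inducible HSP70 genes, and these were not analysed here. Some rows have identifiers without a symbol, so the lack of a match does not show that these genes were unmeasured. All 8 measured genes passed the filter on low counts in every line. Being read from the same libraries, they are not independent of each other.

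Cytosolic chaperones keep other proteins folded. HSP70 proteins bind exposed hydrophobic stretches in cycles of ATP hydrolysis, J-domain proteins such as DNAJB1 bring them substrates and start the hydrolysis, and HSP110 proteins and BAG proteins exchange the nucleotide. Clients then pass to HSP90, which finishes the folding of kinases, steroid receptors and other signalling proteins with a set of co-chaperones, while small heat shock proteins such as HSPB1 hold unfolded proteins without ATP. Tumour cells generally contain large amounts of HSP70 and HSP90. Most of these genes are driven by heat shock factor 1, a transcription factor that binds the heat shock element, a run of GAA and TTC units in alternating orientation.

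The promoter windows below show which members carry such a run next to an annotated start site. The 250 bases before each RefSeq start site (GRCh38.p14) were searched for the paired units GAANNTTC or TTCNNGAA and for the longer runs GAANNTTCNNGAA or TTCNNGAANNTTC, which cover both strands and of which each holds overlapping pairs. A pair was present in 11.6% of 35116 windows and a longer run in 0.441%. Capitals mark the matched units, and each line is the sense strand of the gene, 5′ to 3′.
HSPA8, chr11:123062346-123062374, minus strand, first matched base 230 bases before the start site: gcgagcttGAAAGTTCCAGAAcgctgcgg
HSPA8, chr11:123062171-123062199, minus strand, 55 bases before the same start site, within an annotated exon of another transcript: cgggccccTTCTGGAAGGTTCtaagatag
HSP90AB1, chr6:44247770-44247798, plus strand, 165 bases before the most downstream start site: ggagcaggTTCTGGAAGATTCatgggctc
HSP90AB1, chr6:44247823-44247851, plus strand, 112 bases before the same start site: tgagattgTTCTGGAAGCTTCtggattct
HSP90AA1, chr14:102087112-102087140, minus strand, 88 bases before the downstream start site, within an annotated exon of another transcript: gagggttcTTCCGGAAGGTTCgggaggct
HSPB1, chr7:76302483-76302506, plus strand, a pair only, 182 bases before the start site: taacgagaGAAGGTTCcagatgag
DNAJB1, chr19:14518459-14518482, minus strand, a pair only, 77 bases before the middle start site: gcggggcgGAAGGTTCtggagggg
DNAJB1, chr19:14518429-14518452, minus strand, a pair only, 47 bases before the same start site: gggctctgGAAGCTTCcgccggac

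Longer runs were found in the windows of HSPA8, HSP90AB1 and HSP90AA1, the 3 members with the highest transcript levels per length. A link between the runs and these levels was not tested. HSP90AB1, HSP90AA1 and DNAJB1 have more than a single window, with matches in only a single one of them. The shares of windows given above are therefore not shares of genes. The windows of HSPH1, HSPA4 and BAG3 hold neither motif. A match describes these letters in this window and says nothing of binding.

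Libraries held 13.8 to 19.4 M counts in HCT116, DLD1, LoVo and SW948 and 29.1 to 45.4 M in HT29, SKCO1 and SW1417, which were deposited as a separate table, so the last lines carry less counting error. All 8 epithelial markers looked for are in the tables. In HCT116 the mean of KRT20 was 0 CPM (counts divided by the TMM-adjusted library size) and that of VIL1 was 0.18 CPM, while EPCAM was at 339 CPM. The summed epithelial markers of HCT116 ran from 4682 to 5264 CPM in control and from 6131 to 7156 CPM with 2-MiCit. Of 6 tested there, 3 were called higher, beside 19% of all genes, and 2 lower, beside 18%. Of 8 tested, 2 were called higher in SKCO1 (8.1% of all genes) and 1 was called higher in HT29 (4.65%). In SW1417 2 of 8 were called lower (4.05% of all genes), and the other lines had none of 8. The part of these markers in the chaperone results was not tested. Summed fibroblast markers reached at most 23.1 CPM, leukocyte markers 2.26 CPM and endothelial markers 1.94 CPM in any group, and none of those tested was called. Many of these markers have no row, so the sums cover only a part of them. Of 5 fibroblast markers, 3 have a row for HCT116 and 1 for HT29. Of 4 leukocyte markers 1 has a row, and of 3 endothelial markers 2 for HCT116 and 1 for HT29. At most 2 of a type were tested in a line, and in some lines none.

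In HCT116 all 8 measured chaperones fell with 2-MiCit, led by HSP90AB1 (1.76-fold lower) and HSPA8 (1.74-fold lower). SKCO1 showed the same direction at a smaller size, with 7 members lower by 1.06- to 1.15-fold and BAG3 not called. In SW1417 4 members fell by 1.05- to 1.08-fold, and in LoVo HSPH1 alone passed the test, at 1.32-fold lower. No member was called in DLD1, SW948 or HT29.

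A gene was called at an adjusted p below 0.05, from edgeR's quasi-likelihood test in each line with Benjamini-Hochberg adjustment over all genes. The 8 of 8 lower in HCT116 stand beside 18% of 13834 genes called lower there. In SKCO1, 7 of 8 stand beside 10.8%, in SW1417 4 of 8 beside 4.05%, and in LoVo 1 of 8 beside 0.702%. DLD1 had 0 of 8 beside 0%, SW948 0 of 8 beside 0%, and HT29 0 of 8 beside 3.02%. No member was called higher in any line, while of all genes 19% were called higher in HCT116, 8.1% in SKCO1, 4.65% in HT29, 2.94% in SW1417, 1.59% in LoVo, 0.148% in DLD1 and 0% in SW948.

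Looser measures gave more members in DLD1 and LoVo, without a test of the difference between lines by these counts. At an unadjusted p below 0.05, 4 members were lower in DLD1 beside 8.64% of all genes, and 6 in LoVo beside 11%. The same measure gave 0 in SW948 beside 3.07%, 0 in HT29 beside 11.1%, 8 in HCT116 beside 22%, 7 in SKCO1 beside 16.9% and 5 in SW1417 beside 11%. DESeq2 called 2 members lower in DLD1 (HSPA8 and HSP90AB1, background 1.33%), 5 in LoVo (HSPA8, both HSP90 genes, HSPH1 and HSPA4, background 4.09%), 0 in SW948 (background 0%), 0 in HT29 (background 5.39%), 8 in HCT116 (background 21.2%), 7 in SKCO1 (background 12.1%) and 4 in SW1417 (background 5.86%). The number of members higher was 0 in every line by both measures. At the unadjusted threshold 24.3% of all genes were higher in HCT116, 9.05% in DLD1, 10.3% in LoVo, 3.59% in SW948, 13.1% in HT29, 14.9% in SKCO1 and 9.99% in SW1417. With DESeq2 these shares were 18.8%, 2.88%, 3.94%, 0%, 5.97%, 7.91% and 3.75%, in the same order.

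The HCT116 calls held in every alternative fit run, and those of DLD1, LoVo, SKCO1 and SW1417 changed with the fit. In 1 fit over all lines of a table, which shares an estimate of the spread, DLD1 gained HSPA8, HSP90AB1, HSP90AA1 and HSPH1 (adjusted p from 7.70e-06 to 0.0476). LoVo had HSPA8, HSP90AB1 and HSPH1 in that fit. SKCO1 retained HSP90AB1, HSPH1 and HSPA4 (adjusted p from 0.0280 to 0.0411), and SW1417 had no call (adjusted p from 0.143 to 0.687 for its 4 members). Without a filter on low counts, HSP90AA1 was the one called member of SW1417. The share of all genes called was not taken in these alternative fits, so their member counts have no background beside them.

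All 4 libraries with 2-MiCit lay below all 4 control libraries for 8 members in HCT116, where 17.2% of all genes did. The count was 3 in DLD1 beside 6.1%, 5 in LoVo beside 6.43%, 0 in SW948 beside 2.71%, 0 in HT29 beside 7.31%, 7 in SKCO1 beside 12.5% and 5 in SW1417 beside 7.68%. The median log2 fold change over the members ran from -0.51 in HCT116 through -0.28 in DLD1, -0.22 in LoVo, -0.12 in SKCO1, -0.08 in SW1417 and -0.03 in SW948 to -0.02 in HT29. Over all genes tested in the same lines the median lay between -0.002 and 0.03.

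Read as a share of the whole library, the 8 chaperones took up 1.83% ± 0.03 (SD, n = 4) of the counts in control HCT116 and 1.24% ± 0.05 with 2-MiCit. The share went from 1.57% ± 0.14 to 1.24% ± 0.04 in DLD1 and from 0.974% ± 0.029 to 0.823% ± 0.017 in LoVo. In SKCO1 it was 0.717% ± 0.013 and 0.663% ± 0.006, and in SW1417 0.727% ± 0.009 and 0.696% ± 0.009. SW948 held 0.785% ± 0.012 and 0.796% ± 0.056, and HT29 0.339% ± 0.019 and 0.344% ± 0.032, both differing by less than the spread between libraries. Each library pools the RNA of a whole culture, so fewer expressing cells and less RNA per cell cannot be told apart.

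**Figure D1:**
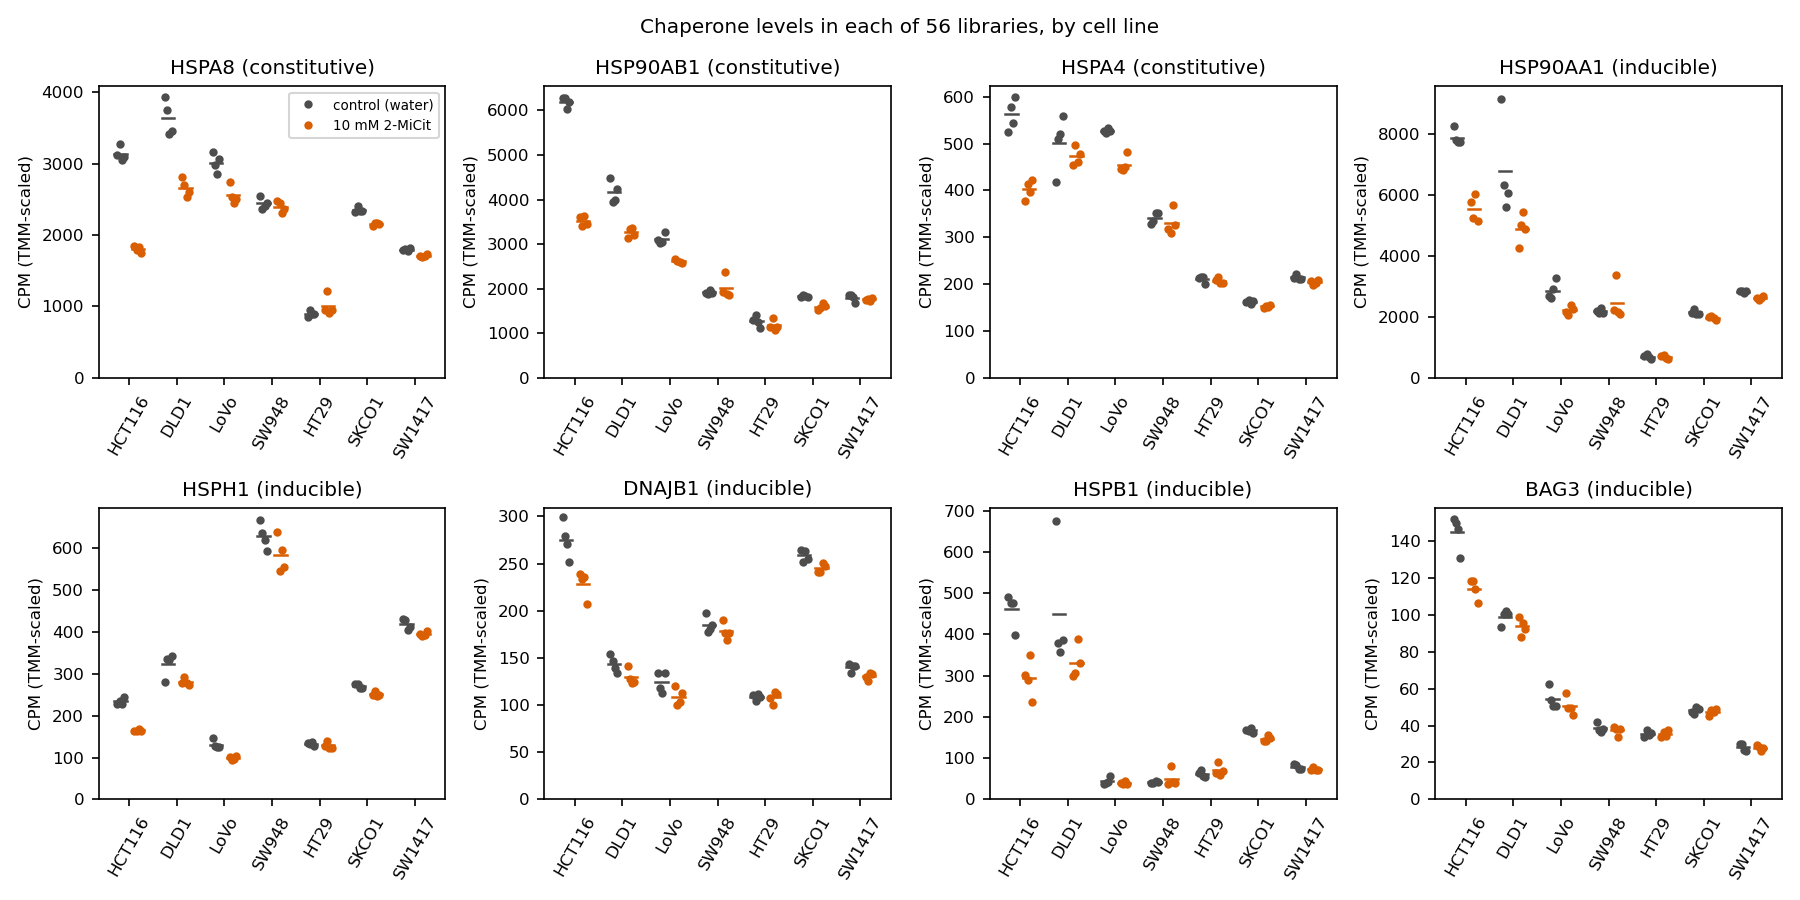
TMM-scaled CPM (linear axes from 0) of the 8 measured chaperones in each of the 56 libraries, by line, with control in grey and 10 mM 2-MiCit in orange. Points are libraries and bars are group means of 4. In HCT116 every orange point lies below every grey point in all 8 panels, and in HT29 and SW948 the groups overlap in all 8.

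HSPA8 (ENSG00000109971; chromosome 11, 123057489 to 123063230, minus strand, GRCh38) encodes HSC70, the constitutive HSP70 that folds new proteins and strips clathrin from vesicles. Its levels in the control libraries of HCT116 were 3117, 3275, 3047 and 3091 CPM, and with 2-MiCit 1844, 1788, 1834 and 1742 CPM. The groups were far apart, and the log2 fold change was -0.80 ± 0.05 (SE, adjusted p = 5.00e-06). The DLD1 controls held 3932, 3749, 3412 and 3459 CPM and the treated libraries 2812, 2697, 2535 and 2596 CPM. These groups did not overlap either, but the difference of -0.45 ± 0.09 missed the threshold (adjusted p = 0.107), and it passed with DESeq2 (adjusted p = 2.79e-07) and without control library 1 (-0.41, adjusted p = 0.0230).

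LoVo gave a smaller difference in the same direction, from 3156, 2982, 2847 and 3069 CPM to 2747, 2532, 2446 and 2502 CPM (-0.24 ± 0.07, adjusted p = 0.0957). In SKCO1 HSPA8 fell from 2326, 2402, 2338 and 2329 CPM to 2127, 2172, 2172 and 2156 CPM. That is a log2 fold change of only -0.12 ± 0.02, with every treated library below every control library (adjusted p = 0.00299). SW1417 went from 1791, 1801, 1770 and 1819 CPM to 1708, 1690, 1708 and 1738 CPM (-0.07 ± 0.02, adjusted p = 0.0415). This call was lost without control library 1, 2 or 3 or treated library 1, 2 or 3 (adjusted p from 0.0786 to 0.137).

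HSPA8 did not pass in the other lines. The SW948 controls ran from 2369 to 2546 CPM and the treated libraries from 2312 to 2480 CPM (-0.03 ± 0.08, adjusted p = 0.878). HT29 had the lowest HSPA8 of the 7 lines, at 856, 944, 895 and 893 CPM in control and 954, 1215, 912 and 943 CPM with 2-MiCit (0.17 ± 0.09, adjusted p = 0.283). Treated library 2 stood above the other 7 in HT29, and without it the difference was 0.06.

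HSPA4 and HSPH1 encode HSP110 proteins, large relatives of HSP70 that act as its nucleotide exchange factors. HSPA4 (ENSG00000170606; chromosome 5, 133051962 to 133106449, plus strand) is the constitutive form and HSPH1 (ENSG00000120694; chromosome 13, 31134974 to 31162388, minus strand) the heat-inducible form. HSPA4 in HCT116 fell from 525, 579, 545 and 600 CPM to 378, 414, 397 and 422 CPM (-0.48 ± 0.06, adjusted p = 0.000189). HSPH1 in HCT116 fell from 229, 235, 228 and 245 CPM to 163, 164, 169 and 163 CPM (-0.51 ± 0.04, adjusted p = 3.22e-05). Neither pair of groups overlapped, and the spread of HSPH1 among the treated libraries was small (SD 2.68 CPM).

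LoVo is the line where HSPH1 passed alone. Its control libraries held 147, 126, 125 and 125 CPM and the treated ones 102, 94.9, 96.6 and 104 CPM (-0.40 ± 0.06, adjusted p = 0.0144). The call was lost without treated library 1 or 2 or control library 3 (adjusted p from 0.0525 to 0.0786). HSPA4 in LoVo was at 527, 522, 534 and 527 CPM in control and at 445, 444, 450 and 482 CPM with 2-MiCit, groups that did not overlap (-0.21 ± 0.05, adjusted p = 0.0510). It passed without control library 1 or control library 4 (adjusted p = 0.0354 each).

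In SKCO1 both HSP110 genes fell slightly. HSPH1 went from 275, 277, 266 and 265 CPM to 249, 259, 247 and 248 CPM (-0.11 ± 0.02, adjusted p = 0.00522). HSPA4 went from a range of 158 to 167 CPM to one of 149 to 156 CPM (-0.09 ± 0.02, adjusted p = 0.0169), a call lost without control library 2 (adjusted p = 0.0545) or 4 (adjusted p = 0.0571). In SW1417 HSPH1 fell from 431, 429, 405 and 412 CPM to 395, 390, 393 and 402 CPM (-0.09 ± 0.02, adjusted p = 0.0485). The loss of 1 library ended that call in 5 of 8 cases, without control library 1 or 2 or treated library 1, 2 or 3 (adjusted p from 0.109 to 0.148). HSPA4 in SW1417 did not pass, although the groups did not overlap (-0.07 ± 0.03, adjusted p = 0.120).

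DLD1, SW948 and HT29 gave no call for either gene. In DLD1, HSPH1 was at 280, 334, 334 and 343 CPM in control and 279, 292, 278 and 273 CPM with 2-MiCit (-0.20 ± 0.08, adjusted p = 0.270), and without the low control library 1 it passed (-0.26, adjusted p = 0.0479). HSPH1 was highest in SW948, from 592 to 669 CPM in control and from 547 to 638 CPM with 2-MiCit (-0.11 ± 0.08, adjusted p = 0.538). HSPA4 differed by -0.09 ± 0.10 in DLD1, -0.05 ± 0.07 in SW948 and -0.02 ± 0.04 in HT29, and HSPH1 by -0.05 ± 0.05 in HT29, with overlapping groups in each case. The DLD1 value of HSPA4 was -0.16 without control library 1 and -0.03 without control library 4.

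The cytosolic HSP90 pair took most of the chaperone counts. HSP90AB1 (ENSG00000096384; chromosome 6, 44246166 to 44253888, plus strand) is the constitutive form, and HSP90AA1 (ENSG00000080824; chromosome 14, 102080738 to 102139699, minus strand) is the form raised further by stress. The genes resemble each other and have processed pseudogenes, so their split of reads by Salmon is uncertain. HSP90AB1 in HCT116 fell from 6286, 6271, 6029 and 6181 CPM to 3603, 3403, 3623 and 3447 CPM. This was the largest log2 fold change among the 8 members in any of the 7 lines, at -0.82 ± 0.05 (adjusted p = 4.80e-06). HSP90AA1 in HCT116 fell from 8259, 7798, 7727 and 7733 CPM to 5762, 5244, 6043 and 5139 CPM (-0.51 ± 0.06, adjusted p = 0.000207).

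Both HSP90 genes fell in SKCO1 without overlap. HSP90AB1 went from 1810, 1855, 1845 and 1804 CPM to 1527, 1576, 1671 and 1611 CPM, the largest difference of a member in that line (-0.20 ± 0.03, adjusted p = 0.000360). HSP90AA1 went from 2141, 2266, 2107 and 2109 CPM to 1986, 2019, 1948 and 1909 CPM (-0.13 ± 0.03, adjusted p = 0.00627). In SW1417 the inducible HSP90AA1 fell from 2853, 2851, 2772 and 2845 CPM to 2633, 2572, 2623 and 2702 CPM (-0.10 ± 0.02, adjusted p = 0.00731), and it was called in that line whichever library was left out. The constitutive HSP90AB1 of SW1417 overlapped, at 1675 to 1854 CPM and 1735 to 1785 CPM (-0.03 ± 0.03, adjusted p = 0.598). Without control library 4, its low control, HSP90AB1 passed in SW1417 at -0.06 (adjusted p = 0.0468).

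DLD1 and LoVo had no overlap for either HSP90 gene and no call. In DLD1, HSP90AB1 was at 4473, 3950, 3997 and 4227 CPM in control and 3146, 3338, 3369 and 3215 CPM with 2-MiCit (-0.35 ± 0.08, adjusted p = 0.179). HSP90AA1 in DLD1 was at 9154, 6324, 5617 and 6071 CPM and at 4253, 5012, 5443 and 4874 CPM (-0.47 ± 0.16, adjusted p = 0.250). Control library 1 of DLD1 was high in HSP90AA1. Without it the HSP90AA1 difference was -0.29 (adjusted p = 0.137), while HSP90AB1 passed at -0.31 (adjusted p = 0.04998).

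In LoVo, HSP90AB1 was at 3093, 3024, 3047 and 3278 CPM in control and 2670, 2626, 2591 and 2571 CPM with 2-MiCit (-0.25 ± 0.07, adjusted p = 0.0666). HSP90AA1 in LoVo was at 2673, 2609, 2902 and 3264 CPM and at 2160, 2053, 2384 and 2253 CPM (-0.37 ± 0.09, adjusted p = 0.0502). Both passed without control library 1 (adjusted p = 0.0247 for HSP90AA1 and 0.0403 for HSP90AB1) and without control library 4 (0.0346 and 0.0417). Every treated LoVo library was below every control library for both genes.

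SW948 and HT29 showed no separation. In SW948, HSP90AA1 was at 2204, 2118, 2278 and 2142 CPM in control and 2227, 3373, 2168 and 2093 CPM with 2-MiCit (0.17 ± 0.15, adjusted p = 0.586). Treated library 2 was also high in HSP90AB1 (2382 CPM against 1850 to 1921 CPM in the other 3) and in HSPB1. Without that library the SW948 differences were -0.01 for HSP90AA1 and -0.02 for HSP90AB1. HT29 had the lowest levels of the pair, with HSP90AB1 at 1122 to 1405 CPM and 1069 to 1341 CPM (-0.11 ± 0.08) and HSP90AA1 at 634 to 767 CPM and 623 to 739 CPM (-0.03 ± 0.07).

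**Figure D2:**
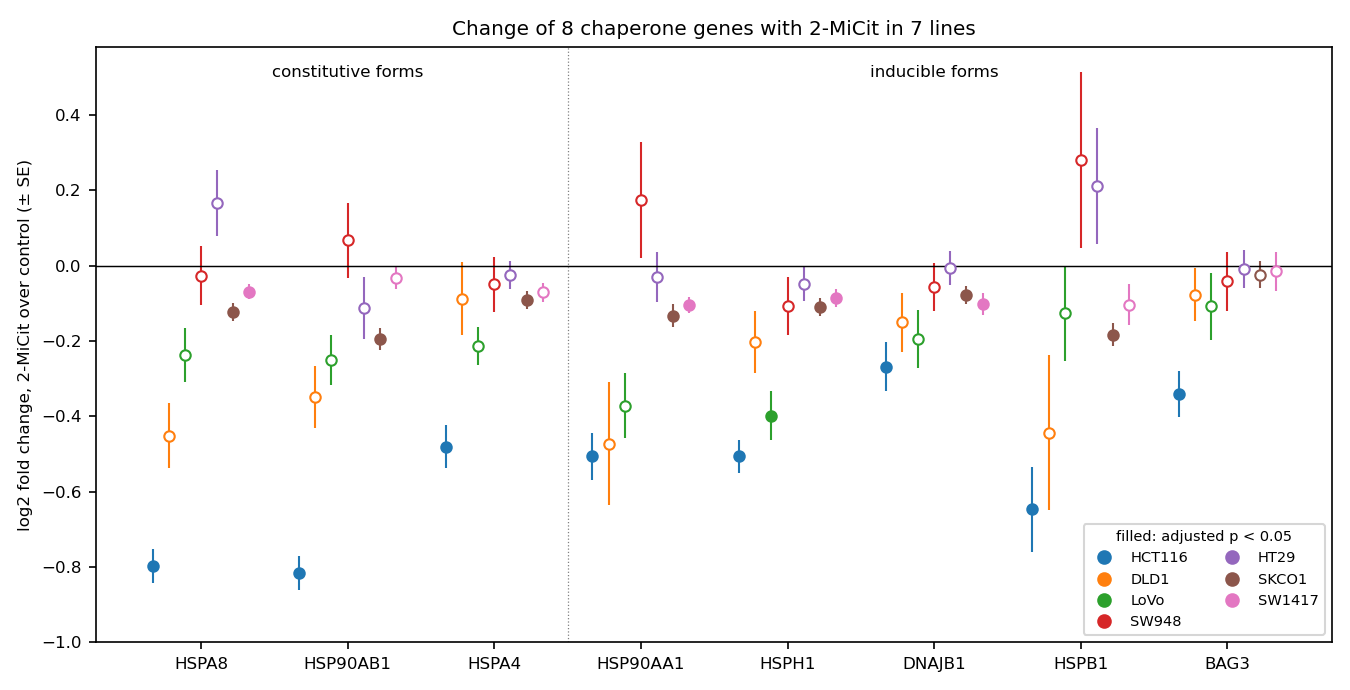
Log2 fold change of 2-MiCit over control with its standard error from edgeR, for each member in each of the 7 lines, and filled points at an adjusted p below 0.05. HCT116 holds the lowest point for every member, from -0.82 for HSP90AB1 to -0.27 for DNAJB1, and no filled point lies above 0.

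DNAJB1 (ENSG00000132002; chromosome 19, 14514770 to 14529770, minus strand) encodes HSP40, the heat-inducible J-domain partner of HSP70. In HCT116 it fell from 299, 279, 271 and 251 CPM to 239, 233, 236 and 207 CPM (-0.27 ± 0.07, adjusted p = 0.00945), the smallest decrease of a member in that line. In SKCO1 the controls held 252 to 264 CPM and the treated libraries, all lower, 241 to 250 CPM (-0.08 ± 0.02, adjusted p = 0.0311). SW1417 had 133.8 to 143 CPM in control and 125 to 133.7 CPM with 2-MiCit, again without overlap (-0.10 ± 0.03, adjusted p = 0.0437). Both small calls were lost when 1 library was left out in 6 of 8 cases. For SKCO1 these were control libraries 1, 3 and 4 and treated libraries 1, 2 and 4 (adjusted p from 0.0542 to 0.113), and for SW1417 control libraries 1, 3 and 4 and treated libraries 1, 2 and 3 (adjusted p from 0.0664 to 0.142). DNAJB1 differed by -0.15 ± 0.08 in DLD1, -0.19 ± 0.08 in LoVo, -0.06 ± 0.06 in SW948 and -0.01 ± 0.04 in HT29, with overlapping groups.

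BAG3 (ENSG00000151929; chromosome 10, 119651370 to 119677819, plus strand) is the inducible BAG protein that links HSP70 to selective autophagy. It had the lowest level per length of the 8 members in the control libraries of every line but HCT116. HCT116 was its only called line, where it fell from 152, 150, 147 and 131 CPM to 118, 118, 114 and 107 CPM (-0.34 ± 0.06, adjusted p = 0.00166). The other 6 lines had overlapping groups and log2 fold changes from -0.11 ± 0.09 in LoVo to -0.01 ± 0.05 in HT29. In SKCO1, where the other 7 members fell, BAG3 was at 46.4 to 49.8 CPM and 45.2 to 48.8 CPM (-0.02 ± 0.04, adjusted p = 0.693).

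HSPB1 (ENSG00000106211; chromosome 7, 76302544 to 76304295, plus strand) encodes HSP27, a small heat shock protein that holds unfolded proteins and binds actin. Processed pseudogenes make its count uncertain too. In HCT116 it fell from 490, 475, 477 and 399 CPM to 302, 289, 350 and 235 CPM (-0.65 ± 0.11, adjusted p = 0.00179), with the largest standard error of a member's log2 fold change in that line. In SKCO1 it fell from 169, 166, 172 and 162 CPM to 142, 141, 156 and 149 CPM (-0.18 ± 0.03, adjusted p = 0.000825). The groups did not overlap in either line.

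In the other lines the HSPB1 groups overlapped. DLD1 had 676, 380, 358 and 385 CPM in control and 299, 305, 388 and 330 CPM with 2-MiCit (-0.44 ± 0.20, adjusted p = 0.292), and -0.18 without the high control library 1. LoVo and SW948 had little HSPB1, from 36.7 to 57.1 CPM over the LoVo libraries and from 36.8 to 44.5 CPM in SW948 apart from 81.9 CPM in treated library 2. The differences were -0.13 ± 0.13 in LoVo and 0.28 ± 0.23 in SW948, the latter at -0.06 without that library. HT29 gave 0.21 ± 0.15 and SW1417 -0.10 ± 0.06.

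Constitutive and inducible forms were compared within each library as the log2 ratio of their counts, after adding 0.5 to each, so that the scaling of the library drops out. The 4 control libraries were set against the 4 treated ones with a two-sided exact permutation test, whose smallest p over 70 splits is 0.0286. No line could pass Benjamini-Hochberg adjustment over the 14 tests on its own, since that smallest p is too large for it. The smallest adjusted p, 0.133, therefore says nothing for or against a shift in a single line, and the ratios are read against the spread between libraries. The permutation did not use the replicate number, which was taken to pair the libraries of HCT116. A sign-flip test over those 4 pairs was not run, and its smallest possible p is 0.125. The ratio of the unmatched genes HSPA1A and HSPA1B over HSPA8 was not analysed here.

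For HSP90AA1 over HSP90AB1, the HCT116 controls were at 0.39, 0.31, 0.36 and 0.32 and the treated libraries at 0.68, 0.62, 0.74 and 0.58. All treated libraries were above all controls by a mean of 0.31, against a pooled SD of 0.06 (exact permutation p = 0.0286, adjusted p = 0.133). The level of the constitutive form was reduced more than that of the inducible one in these HCT116 libraries, by several times the spread between them. SW1417 went the other way by a small amount, from 0.62, 0.62, 0.61 and 0.76 to 0.59, 0.54, 0.60 and 0.60 (-0.07, pooled SD 0.06, exact permutation p = 0.0286, adjusted p = 0.133). Control library 4 was high, and without it the SW1417 difference was -0.037. The other 5 lines had differences between -0.12 and 0.09, with exact permutation p-values from 0.171 to 0.629.

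The ratio of HSPH1 to HSPA4 was lower with 2-MiCit in LoVo and DLD1 by more than the pooled SD, and differed by less than it in the other lines. LoVo went from -1.84, -2.05, -2.10 and -2.08 to -2.13, -2.23, -2.22 and -2.21, without overlap (-0.18, pooled SD 0.09, exact permutation p = 0.0286, adjusted p = 0.133). Control library 1 was high, and without it the LoVo difference was -0.123. DLD1 went from -0.58, -0.61, -0.64 and -0.71 to -0.71, -0.77, -0.73 and -0.81 (-0.12, pooled SD 0.05, exact permutation p = 0.0571, adjusted p = 0.2). In HCT116, where each gene fell by about the same amount, the ratio differed by -0.03 with a pooled SD of 0.06 (exact permutation p = 0.6). The remaining 4 lines had differences between -0.06 and -0.01.

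Taking the forms together, the median log2 fold change in HCT116 was -0.80 over the 3 constitutive members and -0.51 over the 5 inducible ones. The medians were -0.35 and -0.20 in DLD1, -0.24 and -0.19 in LoVo, and -0.12 and -0.11 in SKCO1. In SW1417 the order was the other way, at -0.07 and -0.10. SW948 had -0.03 and -0.04, and HT29 -0.02 and -0.01. These medians carry no test.

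**Figure D3:**
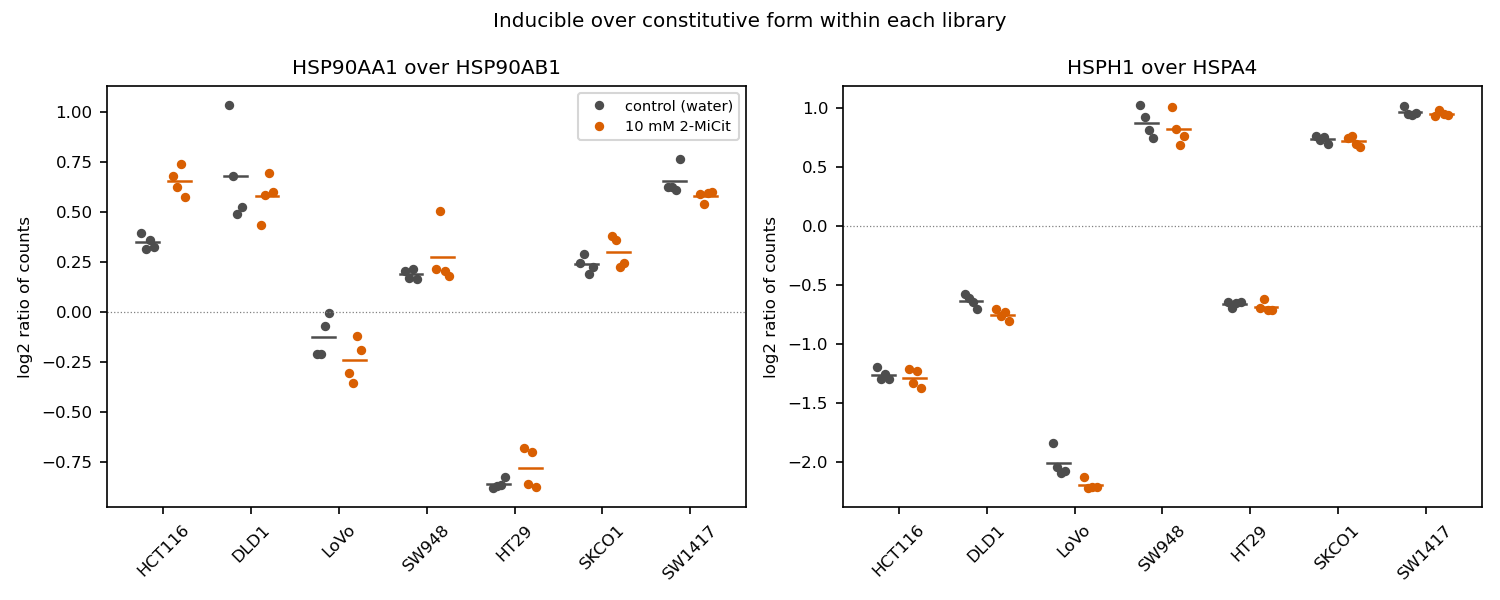
Log2 ratio of the counts of an inducible over a constitutive form in each library, HSP90AA1 over HSP90AB1 on the left and HSPH1 over HSPA4 on the right, with control in grey, 2-MiCit in orange and bars at the means of 4 libraries. The HCT116 treated points on the left, from 0.58 to 0.74, lie above its controls, from 0.31 to 0.39. On the right the lines differ from each other far more than the treatments do.

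Differences in response between lines were tested in edgeR by the interaction of treatment and line, with each table fitted once. Among HCT116, DLD1, LoVo and SW948, 5 of 8 members differed, where 18% of 15800 genes did. These were HSP90AB1 (adjusted p = 5.89e-07), HSPA8 (adjusted p = 9.49e-07), HSPA4 (adjusted p = 0.0124), HSPH1 (adjusted p = 0.0132) and HSP90AA1 (adjusted p = 0.0240). DNAJB1, HSPB1 and BAG3 did not pass (adjusted p = 0.450, 0.0738 and 0.128). The count was 2 without the libraries numbered 2 or without those numbered 4, and 3 without those numbered 3, and HSPA8 and HSP90AB1 were among them each time. With the replicate number as a block in this fit, 4 members differed, and HSP90AA1 did not pass (adjusted p = 0.102).

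Between pairs of lines, HSPA8 fell further in HCT116 than in DLD1 by 0.33 ± 0.08 on the log2 scale (adjusted p = 0.00760), than in LoVo by 0.55 ± 0.08 (adjusted p = 3.40e-05) and than in SW948 by 0.75 ± 0.08 (adjusted p = 1.87e-07). For HSP90AB1 these gaps were 0.45 ± 0.08 (adjusted p = 0.000862), 0.56 ± 0.08 (adjusted p = 7.98e-05) and 0.86 ± 0.08 (adjusted p = 7.39e-08). HCT116 differed from SW948 in 6 members (background 18.7%), from DLD1 in 3 (background 8.34%) and from LoVo in 2 (background 6.04%). In each of these HCT116 had the lower fold change. DLD1 differed from SW948 in 3 members, HSPA8, HSP90AB1 and HSP90AA1 (background 13.2%). The HSP90AA1 contrast includes the high control library 1 of DLD1 and the high treated library 2 of SW948. Without these libraries the change within each line was -0.29 in DLD1 and -0.01 in SW948. The contrast was not run without them. The same SW948 library enters the HCT116 contrasts with SW948 for HSP90AA1 and HSPB1. DLD1 against LoVo (background 0.506%) and LoVo against SW948 (background 0.038%) gave 0 of 8. That a member was called in LoVo and not in DLD1 is therefore not shown to be a difference between them.

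Among HT29, SKCO1 and SW1417, no member passed the interaction test by edgeR, where 5.49% of 16090 genes did. The smallest adjusted p-values of that edgeR test among the members were 0.0509 for HSPA8 and 0.196 for HSPB1. HSPA8 passed without the libraries numbered 2 (adjusted p = 0.00898). In the pairwise contrasts HSPA8 was the only member to differ, between HT29 and SKCO1 (0.29 ± 0.08, adjusted p = 0.0354, 1 of 8 beside 4.14%). The HSPA8 contrast was 0.21 ± 0.04 without the libraries numbered 2 (adjusted p = 0.00495), and it did not pass without those numbered 1, 3 or 4 (adjusted p = 0.199, 0.0986 and 0.142). HT29 against SW1417 (background 3.44%) and SW1417 against SKCO1 (background 1.03%) gave 0 of 8. No test was made between a line of the first table and a line of the second.

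Levels between genes were compared as CPM per kilobase of an annotated transcript, in control libraries. HSP90AA1, HSP90AB1 and HSPA8 were the 3 highest in all 7 lines. In HCT116 the order was HSP90AA1 (2332 ± 75.4, SD), HSP90AB1 (2316 ± 44.1), HSPA8 (1272 ± 40.4), HSPB1 (506 ± 45.3), DNAJB1 (122 ± 8.80), HSPA4 (117 ± 7.00), BAG3 (56.3 ± 3.77) and HSPH1 (45.1 ± 1.45). The HSP90 pair, and likewise DNAJB1 and HSPA4, differed there by less than their spread. HSPA8 led in LoVo (1223 ± 53.6), SW948 (992 ± 31.2) and SKCO1 (954 ± 14.6), HSP90AB1 in HT29 (475 ± 43.6), and HSP90AA1 in DLD1 (2010 ± 474) and SW1417 (838 ± 11.6).

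The lines differed in some members far more than 2-MiCit moved them. The highest line was 11.3 times the lowest for HSP90AA1, 206.7 in HT29 and 2332 in HCT116, and 11.1 times for HSPB1, 45.5 in SW948 and 506 in HCT116. The range was 5.12 times for BAG3, 4.88 for HSP90AB1, 4.81 for HSPH1, 4.06 for HSPA8, 3.46 for HSPA4 and 2.53 for DNAJB1. HSPH1 per kilobase exceeded HSPA4 in SW948, SKCO1 and SW1417 and was below it in the others. HT29 was lowest for HSP90AA1, HSP90AB1, HSPA8 and DNAJB1. These ranges and orders are descriptions, since the 2 tables were made separately and the TMM factors were taken within each line, not between lines.

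The wider chaperone network was read from 5 lists of 40 genes, of which 37 matched and 33 to 37 were tested per line. HCT116 had 20 lower of 35 tested, where 18% of all genes were lower, and SKCO1 14 of 37 beside 10.8%. LoVo had 4 of 34 lower beside 0.702%, SW1417 3 of 34 beside 4.05% and HT29 2 of 34 beside 3.02%. DLD1 had 0 of 34 and SW948 0 of 33 in either direction by edgeR, where 0% of all genes were called lower. A single gene was higher in HCT116, beside 19% of all genes, and in SKCO1, beside 8.1%. Over all 5 lists together, HCT116 had a median log2 fold change of -0.22, DLD1 of -0.18, LoVo of -0.15, SKCO1 of -0.08, HT29 of -0.06, SW1417 of -0.02 and SW948 of 0.07, beside medians near 0 over all genes.

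HSP90 co-chaperones held the most calls by number, all lower. Of 11 tested, 8 fell in HCT116 (18% of all genes), 8 in SKCO1 (10.8%), 4 in LoVo (0.702%), 2 in HT29 (3.02%) and 1 in SW1417 (4.05%). STIP1, the adaptor that hands clients from HSP70 to HSP90, fell in HCT116 (-0.57 ± 0.05, adjusted p = 2.51e-05), LoVo (-0.25 ± 0.05, adjusted p = 0.0442), HT29 (-0.17 ± 0.04, adjusted p = 0.0312) and SKCO1 (-0.20 ± 0.03, adjusted p = 0.000545). FKBP4, an immunophilin of steroid receptor complexes, fell in HCT116 (-0.63 ± 0.04), LoVo (-0.23 ± 0.05) and SKCO1 (-0.18 ± 0.03). PTGES3, the p23 protein that stabilises closed HSP90, fell in HCT116 (-0.33 ± 0.06), SKCO1 (-0.20 ± 0.03) and SW1417 (-0.13 ± 0.03), and SUGT1 fell in HCT116 (-0.34 ± 0.05), LoVo (-0.30 ± 0.05) and SKCO1 (-0.13 ± 0.04). HT29 had no called member of the 8 and still had STIP1 among its called genes.

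Among 8 J-domain proteins, 3 fell in HCT116 beside 18% of all genes, 4 in SKCO1 beside 10.8% and 1 in SW1417 beside 4.05%. DNAJA1, an HSP70 partner in the cytosol, fell in HCT116 (-0.53 ± 0.05), SKCO1 (-0.08 ± 0.03) and SW1417 (-0.11 ± 0.03). DNAJC7 fell in HCT116 (-0.34 ± 0.04) and SKCO1 (-0.07 ± 0.02), as did DNAJA2 (-0.22 ± 0.04 and -0.11 ± 0.02). DNAJB6 fell in SKCO1 (-0.08 ± 0.02), while in HCT116 it was at 0.12 ± 0.05 (adjusted p = 0.0650).

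Of the 9 genes listed as HSP70 regulators, 5 fell in HCT116 beside 18% of all genes, 2 in SKCO1 beside 10.8% and 1 in SW1417 beside 4.05%. HSPBP1, a nucleotide exchange factor of HSP70, fell in HCT116 (-0.41 ± 0.08) and SKCO1 (-0.21 ± 0.03), and BAG1 in HCT116 (-0.43 ± 0.08) and SW1417 (-0.10 ± 0.02). BAG6 fell in HCT116 (-0.69 ± 0.07, adjusted p = 8.46e-05), with an uncertain count, because it lies in the MHC region, which has alternate haplotypes. The other SKCO1 call in this list was SERPINH1 (-0.14 ± 0.03), a collagen chaperone of the endoplasmic reticulum and not a regulator of HSP70.

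The HSP70 and small HSP list had 3 of 4 tested genes lower in HCT116, beside 18% of all genes. It had none in the other lines, of which DLD1 and SW948 had 0% of all genes called lower. These were HSPA14 (-0.81 ± 0.07, adjusted p = 3.85e-05), HSPA2 (-0.75 ± 0.16, adjusted p = 0.00450) and HSPA4L (-0.24 ± 0.08, adjusted p = 0.0299), the last an HSP110 relative. CRYAB was tested in SKCO1 alone (-0.39 ± 0.14, adjusted p = 0.0599). Among the 3 heat shock factor genes tested, HSF4 rose in HCT116 (0.69 ± 0.24, adjusted p = 0.0422), beside 19% of all genes. It also rose in SKCO1 (0.42 ± 0.11, adjusted p = 0.0163), beside 8.1%. HSF4 levels were low, with means of 4.01 CPM in control and 6.45 CPM with 2-MiCit in HCT116. In SKCO1 these means were 5.29 and 7.08 CPM. HSBP1, a small protein that binds heat shock factor 1, fell in HCT116 (-0.17 ± 0.06, adjusted p = 0.0437), and HSF2 was called in no line. HSF1 itself matched no row and was not analysed here.

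**Figure D4:**
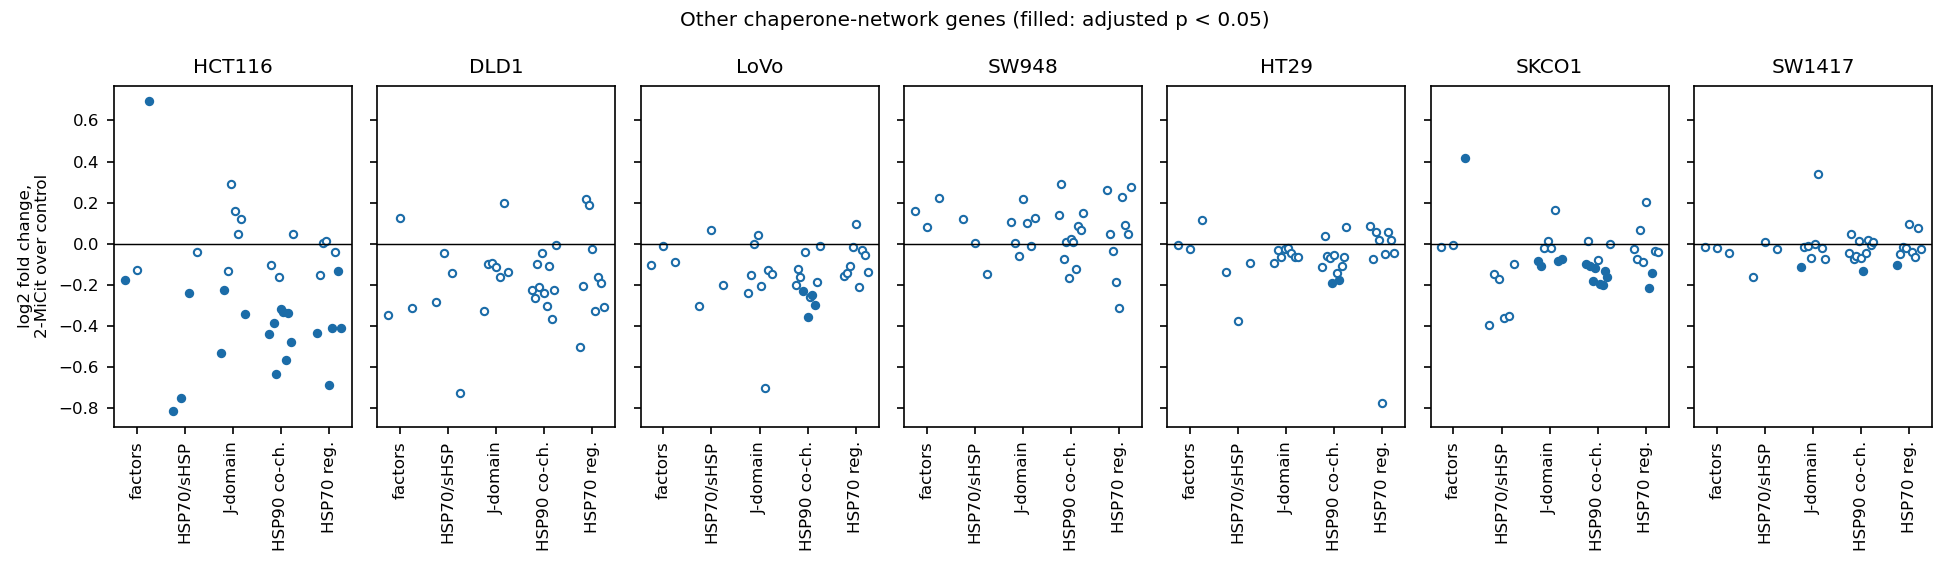
Log2 fold change of 2-MiCit over control for the tested genes of 5 lists (heat shock factors, other HSP70 and small HSP genes, J-domain proteins, HSP90 co-chaperones and HSP70 regulators) in each line, with filled points at an adjusted p below 0.05. HCT116 has 20 filled points below 0 and SKCO1 14, each with HSF4 above 0, while DLD1 and SW948 have none.

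Likeness to HSPA8 was measured as Pearson's r of log2 CPM, after subtracting each line's mean, over the 56 libraries and 11319 genes. The libraries share lines and treatments, so r is a description. HSP90AB1 was among the most like of all genes, with r = 0.89 (rank 4, with HSPA8 itself as rank 1). For the other members many other genes were closer to HSPA8. HSPH1 had r = 0.80 (rank 57), HSP90AA1 0.73 (rank 205), HSPA4 0.70 (rank 289) and DNAJB1 0.69 (rank 338). BAG3 had r = 0.68 (rank 362) and HSPB1 0.65 (rank 499).

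Outside the set, the 5 most like genes were CCT3 (r = 0.90), FKBP4 (r = 0.90), MCM7 (r = 0.89), HGH1 (r = 0.88) and CALR (r = 0.87). CCT3 is a subunit of the cytosolic chaperonin that folds actin and tubulin, MCM7 a subunit of the replicative helicase, and CALR a lectin chaperone of the endoplasmic reticulum. In HCT116 their log2 fold changes were -0.42 for CCT3, -0.63 for FKBP4, -0.43 for MCM7, -0.87 for HGH1 and -0.63 for CALR. In SW948 the same genes lay between 0.01 and 0.05.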

How the data were processed

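RNA-seq libraries were made with a stranded mRNA kit, per the labels' protocols. The authors deposited whole-number counts per gene in 2 tables, and the deposited normalized counts, a signal on a linear scale, served only in 1 alternative. The submitters' processing notes name Salmon 1.5.0, Trimmomatic 0.39, DESeq2, bcl2fastq 2.20.0 and the build GRCh38.p13, in no stated order. Salmon shares reads between similar transcripts, so genes with close copies are uncertain. Symbols, coordinates and lengths came from GENCODE release 29 (GRCh38), and promoters from RefSeq. Identifiers without a symbol held 3.29% to 4.45% of counts and stayed in the fits.

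Each line was tested alone with edgeR 4.0.16 in R 4.3.3 (filterByExpr, TMM factors, robust quasi-likelihood F test, two-sided, Benjamini-Hochberg adjustment over all genes, threshold 0.05), and interactions in 1 fit per table. Adjusted p-values of genes come from it except where the text names another tool. Alternatives used RLE factors, DESeq2 1.42.0, other filters, a replicate block, 1 fit over all lines, limma 3.58.1 on the normalized counts and leaving out each library. The scripts were tested on simulated data. Same-numbered libraries deviated together in HCT116 (correlations from 0.169 to 0.513), so there the numbers were taken to pair the libraries. With the pairing as a replicate block, HCT116 still had 8 members lower. The other lines did not meet this.

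The members, gene lists and tests were chosen with earlier results of these data known. All measured members were named in every line, and per list up to 4 genes called in the most lines, ties by the smallest p. The genes most like HSPA8 were the 5 with the highest r.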

Additional observations from a re-analysis of the deposited data

Results flagged for a closer look

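Of 112 groups of 4 libraries (8 members in 14 groups), 14 held a library whose gap to the nearest other, over the range of the group, exceeded Dixon's critical value, which chance does in about 1 group in 20. Treated library 2 of SW948 was high in 3 members at once, with HSP90AA1 at 3373 CPM against 2093 to 2227 in the other 3, HSP90AB1 at 2382 against 1850 to 1921 and HSPB1 at 81.9 against 36.8 to 42.2. Control library 1 of DLD1 was high in HSPB1 (676 CPM against 358 to 385) and low in HSPH1 (280 against 334 to 343).

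Single libraries also stood apart elsewhere. HSPA8 was at 1215 CPM in treated library 2 of HT29 (912 to 954 in the others) and at 2402 in control library 2 of SKCO1 (2326 to 2338). HSP90AA1 was at 8259 CPM in control library 1 of HCT116 (7727 to 7798) and at 2772 in control library 3 of SW1417 (2845 to 2853). In LoVo, control library 1 held 147 CPM of HSPH1 (125 to 126) and treated library 4 held 482 of HSPA4 (444 to 450). In HCT116, DNAJB1 was at 207 CPM in treated library 4 (233 to 239) and HSPB1 at 399 in control library 4 (475 to 490). HSPB1 was at 78.3 CPM in treated library 2 of SW1417 (72.0 to 72.2).

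The response to 2-MiCit differed between HCT116, DLD1, LoVo and SW948 by edgeR's interaction test for HSPA8 (adjusted p = 9.49e-07), HSP90AB1 (adjusted p = 5.89e-07), HSPA4 (adjusted p = 0.0124), HSPH1 (adjusted p = 0.0132) and HSP90AA1 (adjusted p = 0.0240).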

How the results depend on the processing

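HCT116 kept 8 members lower under every alternative run, and no line gained a member called higher. Among the alternatives the share of all genes called was taken for DESeq2 only. The other counts here and in the next paragraph stand without a background. The number lower in DLD1 was 2 with DESeq2, 4 in 1 fit over all lines and 0 to 3 when 1 library was left out. In LoVo it was 5 with DESeq2, 3 with a stricter filter, 3 in 1 fit, 3 with limma on the authors' normalized counts (chosen after seeing the data) and 0 to 4 with a library left out. SKCO1 had 3 in 1 fit and 5 to 7 with a library left out. In SKCO1 limma did not call HSPA4 (adjusted p = 0.0629) or DNAJB1 (adjusted p = 0.0974). For HT29, SKCO1 and SW1417 the authors' normalization differed between the genes of a library. At counts of at least 50, the 99th percentile of raw over normalized count was 1.897 to 2.135 times the 1st. In the other lines this ratio was 1. The limma results of SKCO1 and SW1417 thus differ from the main fit in normalization as well as in test. SW1417 had 1 without a filter, 0 in 1 fit, 0 with limma and 1 to 4 with a library left out. Members whose response differed between lines were 2 to 5 in the first table and 0 to 1 in the second with a replicate left out, and in the second 1 with RLE factors and 1 without a filter.

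With a replicate block LoVo had 2 lower and SW1417 3, and 4 members differed in the first table and 2 in the second. Outside HCT116 the libraries share only a number, and in HT29 3 of 4 and in SKCO1 and SW1417 2 of 4 correlated best with their own.

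Uncalled members turned sign when 1 library was left out. HSPB1 ran from -0.20 to 0.030 in LoVo and from -0.056 to 0.40 in SW948. In SW948 HSP90AA1 ran from -0.015 to 0.24, HSP90AB1 from -0.024 to 0.10 and BAG3 from -0.067 to 0.0062. In HT29 HSP90AA1 ran from -0.077 to 0.018, DNAJB1 from -0.032 to 0.024 and BAG3 from -0.038 to 0.017, and in SW1417 BAG3 from -0.047 to 0.017. The cause was not tested. Alternatives that sum or split HSPA1A and HSPA1B were not run. Counting error is larger in the 4 lines with fewer counts.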
